A study of Mus musculus with 8 samples.

Results

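The set described here holds 47 interferon-stimulated genes of 46625 genes in the count table: antiviral effectors, nucleic acid sensors, the ISG15 modifier system, ADP-ribosylating enzymes and interferon-induced GTPases. The members were selected on earlier results of the host comparison in these same libraries, so their differences between hosts are given below as a description. The calls of the fit over all genes are stated once for completeness and support nothing about the members. Symbols are written in capitals as the count table has them, and GM4955 is an older name of the gene now called Ifi206.

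RNA was sequenced from sorted 8F10 T cells, whose T cell receptor recognises a peptide of insulin. Stem cells from the bone marrow of 8F10 donors, which lack the endogenous TCR alpha chain and carry CD45.2, were freed of T and B cells and given to hosts carrying CD45.1 that had received a non-lethal dose of radiation. The hosts were NOD mice or B16A mice, and both are labelled with the strain NOD/ShiLtJ. As background, B16A mice derive from NOD and make insulin with an exchanged amino acid in its B chain. The T cells were taken 6 weeks later from inguinal lymph nodes of either host. Irradiation leaves host cells in place, and a single receptor specificity stands for the T cell pool in both groups. Each host had 4 libraries, 1 of each host in each of batches 1 to 4. The labels do not say whether the libraries of a host came from separate animals, so the spread between them may be partly technical.

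Type I interferon binds the receptor IFNAR1/IFNAR2, and the kinases JAK1 and TYK2 then phosphorylate STAT2. With IRF9 it takes part in the complex ISGF3, which binds the interferon-stimulated response element, or ISRE, in the promoters of its target genes. Interferon gamma acts mainly through gamma-activated sites, known as GAS. T cells respond to both kinds of interferon, and the products of the induced genes sense viral RNA, block translation, degrade RNA and restrain viral assembly.

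Promoter sequences are shown for 7 members because they place the ISRE beside the values that follow. They cover the 200 bases before the gene start in RefSeq (GRCm38.p6), written 5′ to 3′ on the gene's strand, with capitals marking every match to the ISRE core, here GAAA, any 2 bases, then GAAA on either strand.
ISG15, chr4:156200819-156201018, minus strand: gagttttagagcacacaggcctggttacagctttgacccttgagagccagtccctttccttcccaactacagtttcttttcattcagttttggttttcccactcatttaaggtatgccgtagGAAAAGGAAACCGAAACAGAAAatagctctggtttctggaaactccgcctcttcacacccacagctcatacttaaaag
IFIT1, chr19:34640689-34640888, plus strand: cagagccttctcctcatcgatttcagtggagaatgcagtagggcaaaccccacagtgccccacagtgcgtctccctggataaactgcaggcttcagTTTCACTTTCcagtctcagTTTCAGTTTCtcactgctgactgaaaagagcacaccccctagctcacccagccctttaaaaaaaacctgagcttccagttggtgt
IFIT3, chr19:34583329-34583528, plus strand: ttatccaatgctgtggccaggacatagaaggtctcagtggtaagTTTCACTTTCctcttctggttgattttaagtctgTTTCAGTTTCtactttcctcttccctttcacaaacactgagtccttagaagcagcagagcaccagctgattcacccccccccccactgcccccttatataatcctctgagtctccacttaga
OAS3, chr5:120777660-120777859, minus strand: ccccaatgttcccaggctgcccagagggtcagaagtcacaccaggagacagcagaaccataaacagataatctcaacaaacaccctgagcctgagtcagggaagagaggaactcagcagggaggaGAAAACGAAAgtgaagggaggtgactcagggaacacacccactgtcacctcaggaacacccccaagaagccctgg
RSAD2, chr12:26456453-26456652, minus strand: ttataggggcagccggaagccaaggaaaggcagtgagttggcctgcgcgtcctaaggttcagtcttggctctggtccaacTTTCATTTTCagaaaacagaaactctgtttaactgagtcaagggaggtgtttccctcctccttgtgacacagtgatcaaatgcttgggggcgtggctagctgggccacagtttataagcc
CMPK2, chr12:26469015-26469214, plus strand: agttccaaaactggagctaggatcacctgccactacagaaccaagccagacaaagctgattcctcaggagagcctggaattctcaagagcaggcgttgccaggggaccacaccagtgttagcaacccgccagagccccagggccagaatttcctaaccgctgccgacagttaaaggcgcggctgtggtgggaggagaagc
IFI47, chr11:49076387-49076586, plus strand: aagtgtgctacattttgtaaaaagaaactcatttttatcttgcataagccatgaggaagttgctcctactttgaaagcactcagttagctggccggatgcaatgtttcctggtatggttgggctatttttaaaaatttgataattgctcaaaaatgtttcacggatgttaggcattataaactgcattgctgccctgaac
ISG15 carried 3 overlapping cores, whose first bases lay at -78, -72 and -66 from the start. IFIT1 had cores at -104 and -85, IFIT3 at -156 and -122, OAS3 at -75 and RSAD2 at -120. CMPK2 and IFI47 are shown as contrasts: neither had a core in the window searched, and they differ from each other in the levels given below.

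A window of 300 bases (250 before to 50 after the start) was found for 36 of the 47 members. The ISRE core occurred in 16 of them (44.4%), against 3.99% of 27025 genes with a window, and at least 2 cores occurred in 7 (19.4%) against 0.266%. The GAS core, TTCNNNGAA, which is its own reverse complement, occurred in 8 members (22.2%) and in 9.55% of all genes. A match is a description of these letters and not a measured binding site. MX1, MX2, OAS2, USP18, RTP4, IFI27L2A, ZBP1, DHX58, PARP9, PARP14 and TOR3A had no window in the table used.

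Library totals were 4896593 to 6137666 counts in batches 1 to 3, and 28301805 (NOD) and 28094237 (B16A) counts in batch 4. The batch 4 pair differed from the other 6 libraries, with 19751 and 20723 genes detected against 29729 to 33175. Levels are CPM, counts scaled to a common depth with library sizes adjusted by the TMM method. In batches 1 to 3, 3 counts correspond to 0.457 to 0.561 CPM. CD4, which marks helper T cells, was measured at 699 to 1200 CPM in all 8 libraries, and CD8A, which marks cytotoxic T cells, at 0 to 3.56 CPM. CD8B1, its partner chain, was at 62.6 to 186 CPM.

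Per length of exon, the levels of the members spanned from IFI27L2A, which codes for a small hydrophobic protein, at 388 CPM per kilobase (mean of 8 libraries) to IFI44, an antiviral protein gene, at 0.378 CPM per kilobase. IFI47 (127), IGTP (102), SP100 (84.8) and IFI35 (56.8 CPM per kilobase) followed IFI27L2A in level. IFI47 and IGTP code for GTPases of the cell's defence against intracellular parasites, SP100 for a nuclear body protein, and IFI35 for a leucine zipper protein. At the low end, OAS1A stood at 0.800 and MX1 at 1.52 CPM per kilobase. The ranges of neighbours in this order overlap widely over the libraries, so the order of neighbouring genes is not beyond their spread.

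**Figure D1:**
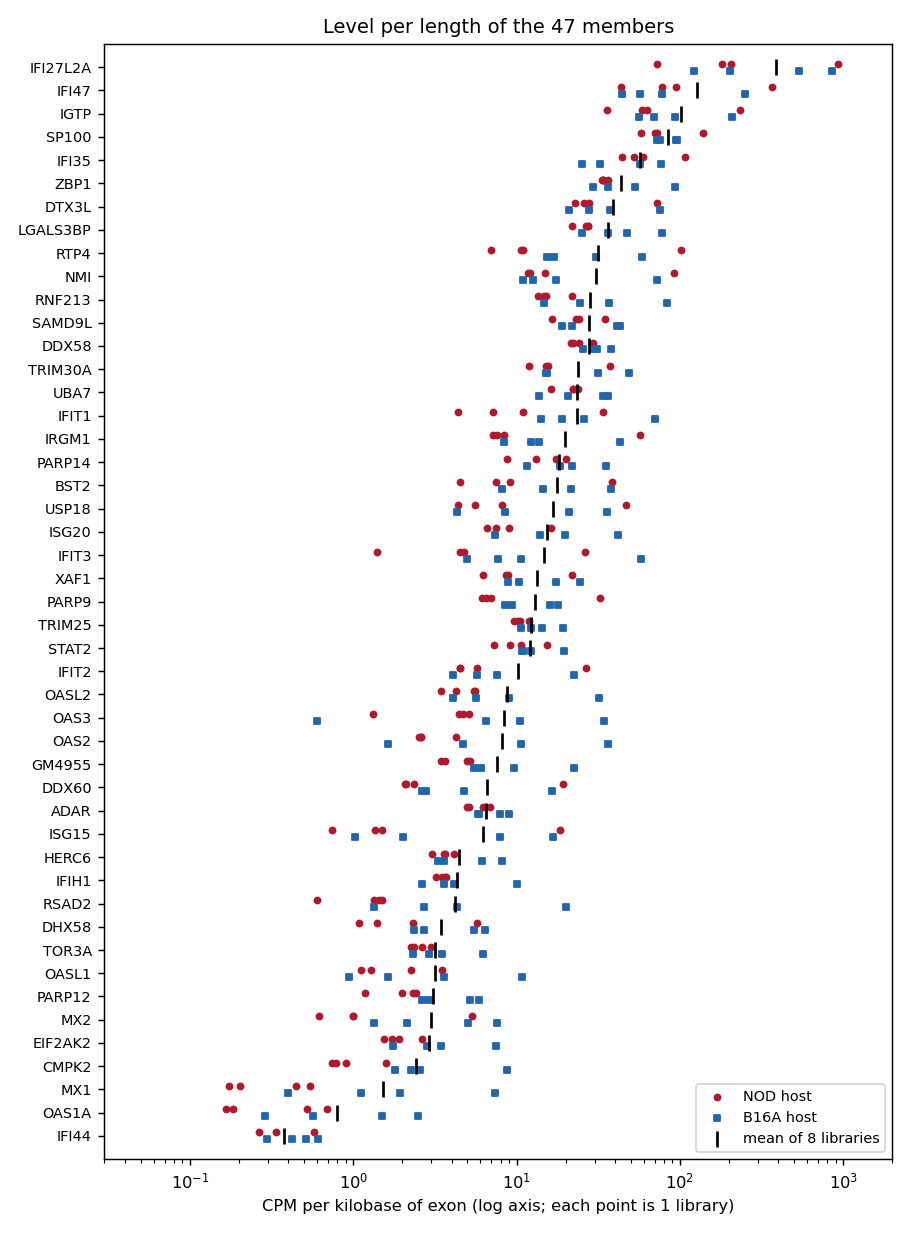
Level of each of the 47 members in CPM per kilobase of exon on a log axis (each point is a library, red for NOD hosts and blue for B16A hosts, black bar the mean of 8 libraries). IFI27L2A is highest at 388 and IFI44 lowest at 0.378, and the NOD library of batch 4, with 0 counts of IFI44, cannot be drawn on the log axis for that gene.

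Across the members, levels were lower in cells from NOD hosts than from B16A hosts in batches 2 and 3, close to equal in batch 1 and slightly higher in batch 4. In a model with the batch as a block, 42 of the 45 members with enough reads to be tested had a negative log2 fold change (NOD over B16A), with a median of -0.48. Over all 14607 tested genes 48.7% were negative and the median was 0.01. The NOD library was the lower of its pair for 26, 42, 44 and 15 of the 45 members in batches 1 to 4, and the median log2 ratio was -0.05, -0.75, -1.45 and 0.22. The same medians over all genes lay between -0.03 and 0.05. In bulk RNA, fewer cells expressing a gene and less RNA per cell cannot be told apart.

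No member passed an adjusted p of 0.05 between hosts in either direction (edgeR's quasi-likelihood test, Benjamini-Hochberg over all genes). The share of all genes called was 0% lower and 0% higher, while 857 genes (5.87%) and 16 of the 45 members had an unadjusted p under 0.05. DESeq2 with the batch term called 27 genes and 0 of the 27 members to which it gave an adjusted p; the other 18, among them CMPK2, MX1 and GM4955, got none. Because the host comparison chose the members, these counts describe them and nothing is read from them.

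The fit with both batch 4 libraries left out uses the same values that chose the members, so its calls too are only a description. CMPK2, MX2 and RTP4 were among the 7 of 15716 genes (0.0445%) called lower in NOD hosts in it. Their log2 fold changes were -2.14 (SE 0.38), -2.19 (SE 0.42) and -1.10 (SE 0.21). The median over the members was then -0.70, and with both batch 3 libraries left out it was -0.20, with 36 negative members. In batches 1 to 3, the 3 NOD libraries all lay below the 3 B16A libraries for 21 of 45 members, against 5.44% of all genes. The reverse held for 0 members and for 4.75% of all genes. Only 6 members were lower in the NOD library in all 4 batches (6.85% of all genes): TRIM25, EIF2AK2, CMPK2, PARP12, RNF213 and GM4955.

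**Figure D2:**
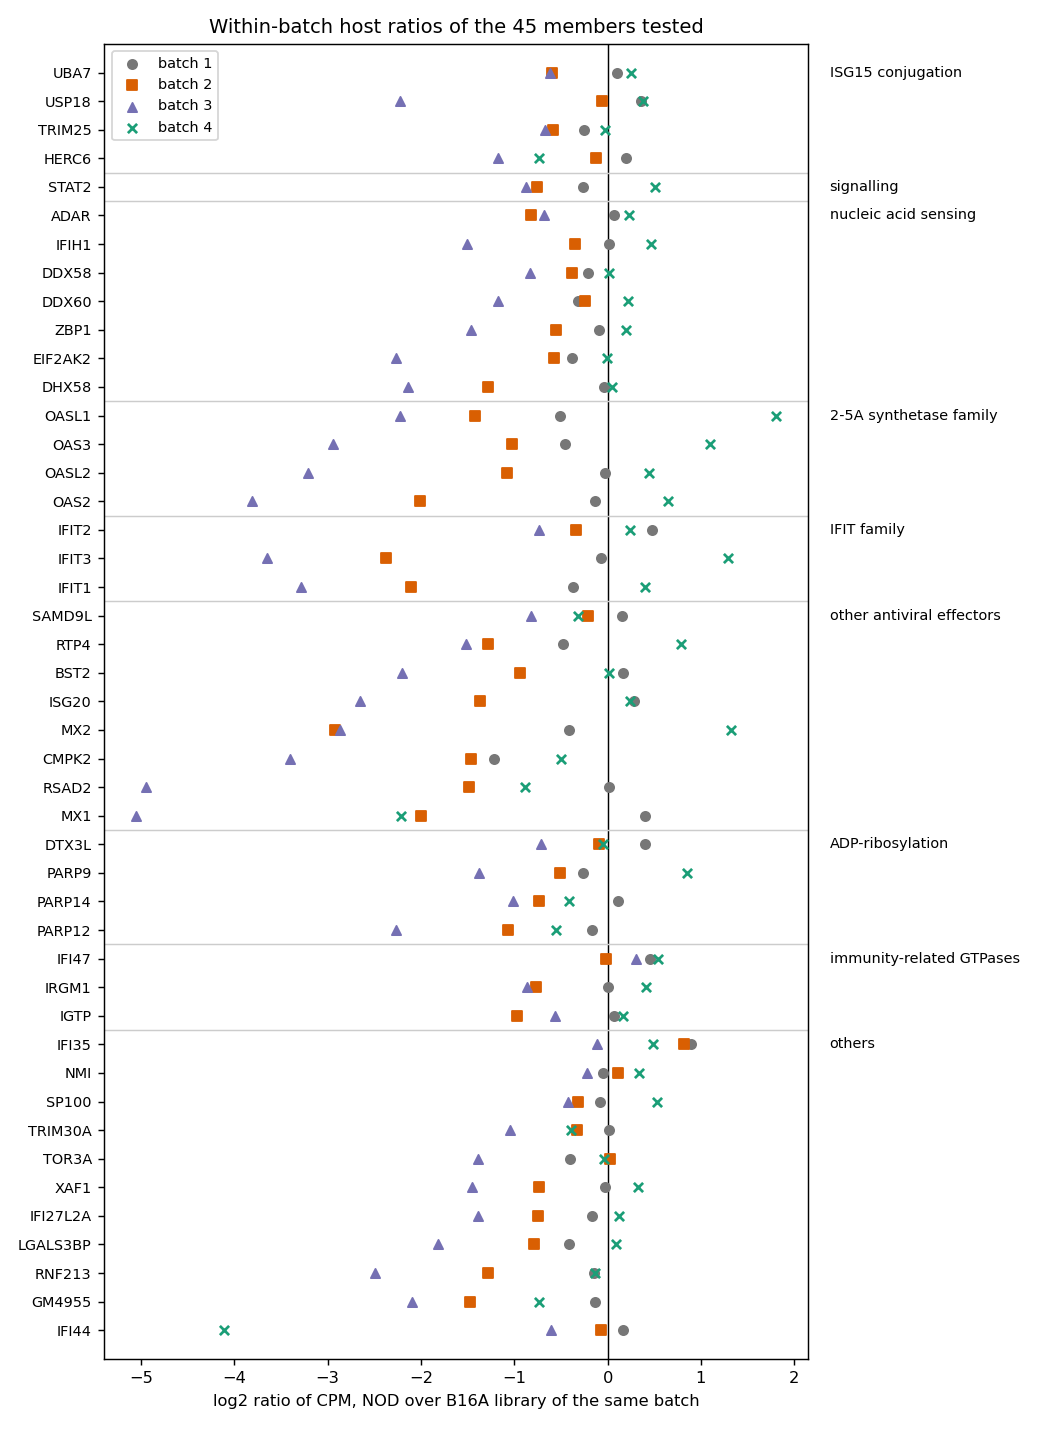
Log2 ratio of CPM, NOD over B16A library of the same batch, for the 45 tested members grouped by role (1 symbol per batch). The batch 2 squares and batch 3 triangles lie mostly left of 0, with medians of -0.75 and -1.45, while the batch 1 circles centre on -0.05 and the batch 4 crosses on 0.22; the IFI44 cross at -4.11 rests on 0 counts in the NOD library.

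The B16A library of batch 3 held the highest value of all 8 libraries for 27 of 45 members, against 5.44% of all genes. It was the highest of the B16A libraries of batches 1 to 3 for 43 members (29.9% of all genes). The summed level of the 47 members was 3140, 2490, 2920 and 6650 CPM in the NOD libraries of batches 1 to 4 and 3160, 3850, 7130 and 5570 CPM in the B16A libraries. In batches 1 to 3 the sums thus spanned less in NOD than in B16A libraries. Sums weigh abundant genes most, so the log2 deviation from each gene's mean over the libraries was also taken. Its median over the tested members was -0.31, -0.66 and -0.47 in the NOD libraries of batches 1 to 3. In the B16A libraries it was -0.27, 0.09 and 0.99. By this measure the NOD library of batch 2 was the lowest of all 8.

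MX1, RSAD2 and CMPK2 had the most negative log2 fold changes of the tested members. MX1, a dynamin-like GTPase that traps viral nucleocapsids (chromosome 16, 97447035 to 97462907, mm10), stood at 2.07, 1.68, 0.654 and 0.762 CPM in the NOD libraries of batches 1 to 4. In the B16A libraries it stood at 1.52, 7.33, 27.8 and 4.23 CPM, a log2 fold change of -2.37 (SE 0.72). The 2 hosts overlapped only through batch 1, where the B16A library was the lower one. MX2 codes for a related GTPase and is annotated as a polymorphic pseudogene in the reference strain. Its log2 ratios were -0.41, -2.92, -2.87 and 1.32 in batches 1 to 4.

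RSAD2 codes for viperin, an enzyme that makes a chain-terminating nucleotide, and lies on chromosome 12 (26442746 to 26456452). It stood at 5.85, 6.54, 2.61 and 6.27 CPM in NOD libraries and at 5.79, 18.7, 86.9 and 11.8 CPM in B16A libraries. The batch 3 B16A value was 31.0 times its NOD partner, and the batch 1 pair was level. CMPK2, a mitochondrial nucleotide kinase that supplies viperin's substrate (chromosome 12, 26469204 to 26479837), stood at 3.10, 3.74, 3.27 and 6.59 CPM in NOD libraries. The B16A libraries held 7.46, 10.6, 36.4 and 9.39 CPM. All 4 B16A libraries lay above all 4 NOD libraries, by 7.46 against 6.59 CPM at the nearest. The log2 fold change was -1.63 (SE 0.43). The share of all genes with such an order is not given here, and the members were chosen on this comparison, so the order is a description.

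RTP4, a receptor-transporting protein with antiviral activity, stood at 23.4, 14.8, 22.6 and 215 CPM in NOD libraries and 32.7, 36.2, 64.9 and 124 CPM in B16A libraries. In batches 1 to 3 the hosts did not overlap, and in batch 4 the order turned, with the NOD library highest of all 8. The other members of this group were BST2 (tetherin, which holds budding virions at the membrane), the exonuclease gene ISG20 and SAMD9L, a translation inhibitor. Their log2 fold changes ran from -0.85 (ISG20) to -0.30 (SAMD9L).

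The IFIT genes, whose products bind viral RNA ends, lie together on chromosome 19. IFIT1 (34640871 to 34650009) stood at 28.9, 11.6, 19.1 and 90.1 CPM in NOD libraries and at 37.3, 50.7, 188 and 68.4 CPM in B16A libraries. IFIT3 (34583531 to 34588731) stood at 8.26, 2.43, 7.84 and 45.5 CPM and at 8.68, 13.4, 101 and 18.5 CPM. For both, the B16A library of batch 3 was the highest and the NOD library of batch 4 stood above its partner. IFIT2 (34550694 to 34576419) was nearly level between hosts, at 22.4, 17.8, 17.8 and 105 CPM against 16, 22.5, 29.9 and 88.6 CPM. The log2 fold changes were -1.27 (SE 0.74) for IFIT1, -1.07 (SE 1.06) for IFIT3 and -0.08 (SE 0.21) for IFIT2. IFIT1 and IFIT3 carry 2 ISRE cores each in their windows, as shown above, and IFIT2 has none in either of its windows. Of the 50-base stretches of IFIT3 transcripts, 51.24% also occur in Ifit3b, so single reads of 50 bases may not separate these genes.

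**Figure D3:**
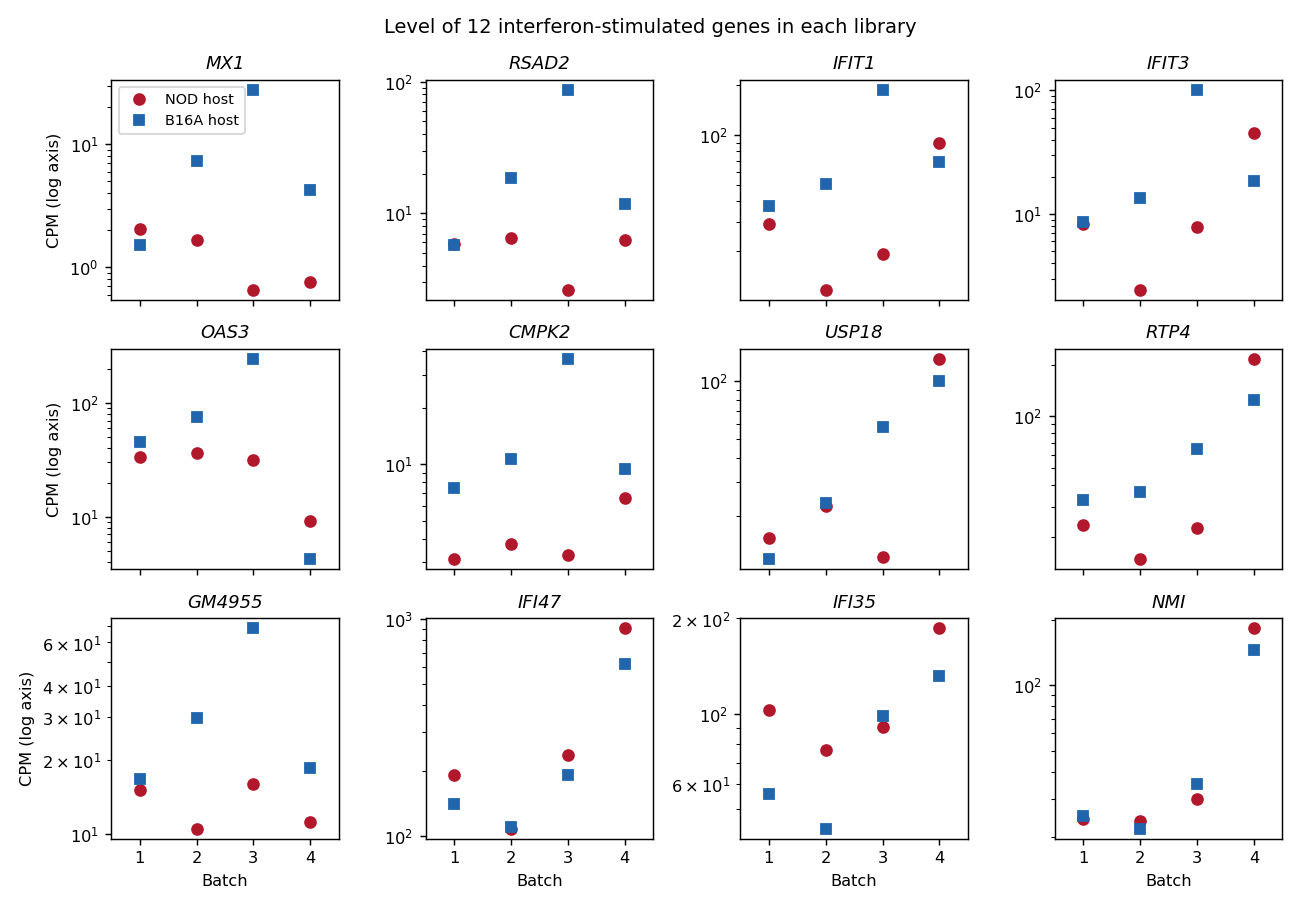
CPM on a log axis in each library of 12 members, by batch (red circle NOD host, blue square B16A host; each point is 1 library, so there are no error bars). MX1, RSAD2, IFIT1, IFIT3 and OAS3 peak in the B16A library of batch 3, and IFI47, IFI35 and NMI are highest in batch 4. Among the B16A libraries of batches 1 to 3, batch 3 is the highest for IFI47, IFI35 and NMI too.

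The 2-5A synthetase family makes the oligoadenylates that switch on RNase L. OAS2 stood at 18.9, 11.6, 11.3 and 11.6 CPM in NOD libraries and 20.9, 47.3, 161 and 7.29 CPM in B16A libraries (log2 fold change -1.27, SE 0.90). OAS3 stood at 33.2, 36.3, 31.4 and 9.28 CPM and at 45.8, 74.4, 242 and 4.23 CPM (-0.86, SE 0.72). OASL2, a member that acts in RNA sensing, stood at 35.1, 27.1, 21.9 and 35.7 CPM and at 35.8, 57.6, 204 and 26.2 CPM (-0.90, SE 0.71). In these 3 genes the order held in batches 1 to 3, without overlap of the hosts, and turned in batch 4. OASL1, which restrains translation of IRF7, was at -0.62 (SE 0.59). OAS1A was too low to be tested, with 2 to 7 counts in NOD and 7 to 29 counts in B16A libraries, and 57.57% of its 50-base stretches also occur in Oas1g.

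Among the sensors of nucleic acids, all 7 tested members had negative fold changes, from -0.81 to -0.29. DHX58, the helicase LGP2, stood at 7.57, 3.55, 4.58 and 18.6 CPM in NOD libraries and 7.76, 8.89, 20.9 and 17.9 CPM in B16A libraries. EIF2AK2, the RNA-activated kinase PKR that stops translation, stood at 13.4, 9.72, 7.84 and 8.87 CPM and at 17.5, 14.5, 38.5 and 8.93 CPM. ZBP1, a sensor of Z-form nucleic acids that triggers cell death, stood at 120, 128, 119 and 118 CPM and at 128, 187, 327 and 103 CPM. ZBP1 was nearly constant over the NOD libraries (121 ± 4.29 CPM, SD, n = 4) and varied over the B16A libraries (186 ± 100 CPM, SD, n = 4). The RNA helicase genes DDX58 (RIG-I), IFIH1 (MDA5) and DDX60 and the RNA editing enzyme gene ADAR had fold changes from -0.36 to -0.29.

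ISG15 is a ubiquitin-like protein that is attached to other proteins. Its counts were 6, 3, 7 and 310 in NOD libraries and 10, 5, 37 and 304 in B16A libraries. It passed the filter limit of 1.64 CPM in only 1 NOD and 2 B16A libraries and so was not tested. In batch 4 it stood at 13.9 (NOD) and 12.7 CPM (B16A), against 0.561 to 5.99 CPM in batches 1 to 3. UBA7, the enzyme that activates ISG15, stood at 149, 148, 158 and 109 CPM and at 138, 225, 242 and 91.6 CPM. HERC6, a ligase for ISG15, stood at 38.5, 28.4, 33.2 and 33.9 CPM and at 33.6, 30.9, 75.6 and 56.7 CPM. Their log2 fold changes were -0.22 (SE 0.17) and -0.48 (SE 0.22).

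USP18 removes ISG15 and also silences the interferon receptor. It stood at 15.5, 22.6, 12.3 and 130 CPM in NOD libraries and at 12.0, 23.6, 58.1 and 99.7 CPM in B16A libraries, with log2 ratios of 0.36, -0.06, -2.23 and 0.38 in batches 1 to 4, so its difference lay in batch 3. TRIM25, a ubiquitin ligase that activates RIG-I, stood at 59.0, 55.2, 69.0 and 60.5 CPM and at 70.3, 82.5, 110 and 61.6 CPM. STAT2, the signalling factor of the set, stood at 54.4, 43.0, 62.8 and 91.5 CPM and at 65.0, 72.9, 116 and 64.1 CPM (log2 fold change -0.34, SE 0.21). TRIM25 and STAT2 both separated the hosts in batches 1 to 3 and lost that order or its size in batch 4.

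Of the ADP-ribosylating enzymes, PARP12, which acts on stress granules and translation, stood at 9.29, 9.72, 4.74 and 7.98 CPM in NOD libraries and 10.5, 20.6, 23.6 and 11.7 CPM in B16A libraries. No B16A library of PARP12 lay below any NOD library, by 10.5 against 9.72 CPM at the nearest, and its log2 fold change was -1.0 (SE 0.33). PARP14 stood at 186, 122, 162 and 81.1 CPM and at 172, 204, 327 and 108 CPM (-0.51, SE 0.17). PARP9 and its partner DTX3L, a ubiquitin ligase, form a complex. PARP9 stood at 34.2, 31.8, 29.9 and 157 CPM and at 41.1, 45.4, 78.2 and 87.0 CPM, and DTX3L at 159, 149, 131 and 415 CPM and at 120, 159, 214 and 430 CPM. The 2 genes overlap by 682 bases on opposite strands, and the use of strand in the counting is not given in the sources used here, so reads in the overlap cannot be told apart.

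The immunity-related GTPases guard cells against bacteria and parasites in vacuoles and are induced mainly by interferon gamma. IFI47 was at 192, 108, 235 and 904 CPM in NOD libraries and 141, 110, 191 and 622 CPM in B16A libraries (log2 fold change 0.32, SE 0.14). IGTP (Irgm3) stood at 118, 72.0, 128 and 473 CPM and at 113, 141, 189 and 420 CPM (-0.31, SE 0.18). IRGM1 stood at 48.5, 41.5, 43.8 and 333 CPM and at 48.4, 70.8, 79.6 and 250 CPM (-0.29, SE 0.20). All 3 were highest in both batch 4 libraries. IFI47 was one of 3 members with a positive fold change, beside IFI35 (0.52, SE 0.17) and its binding partner NMI (0.05, SE 0.16).

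The remaining members included GM4955, a gene of the DNA-sensing PYHIN family (chromosome 1, 173468485 to 173491041). It stood at 15.1, 10.5, 15.9 and 11.2 CPM in NOD libraries and at 16.7, 29.5, 68.4 and 18.6 CPM in B16A libraries. The hosts did not overlap, by 16.7 against 15.9 CPM at the nearest (log2 fold change -1.12, SE 0.28). The reads of GM4955 may be shared with relatives, since 25.64% of its 50-base stretches also occur in other genes, mainly Ifi208 and Ifi213. RNF213, a very large ubiquitin ligase, stood at 369, 256, 250 and 227 CPM and at 411, 622, 1400 and 250 CPM (-0.99, SE 0.44). IFI27L2A stood at 83.3, 33.7, 94.6 and 431 CPM and at 93.5, 56.6, 249 and 396 CPM (-0.54, SE 0.21). RNF213 and IFI27L2A were thus level in batches 1 and 4, and apart in batches 2 and 3.

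IFI44 had 12, 19, 10 and 0 counts in NOD libraries and 12, 24, 16 and 75 counts in B16A libraries. Its log2 fold change of -1.18 (SE 0.95) rested on the batch 4 NOD library, and it was -0.18 (SE 0.60) with batch 4 left out. LGALS3BP, a secreted glycoprotein gene, had -0.72 (SE 0.24), and the apoptosis factor gene XAF1, TRIM30A and TOR3A lay between -0.46 and -0.44. SP100 was at -0.07 (SE 0.16).

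Members with a large ratio in batch 2 also had a large one in batch 3, although no library is shared between the pairs. Across the 45 members the correlation of the log2 ratios was r = 0.77, and across all 14607 tested genes it was -0.01. Batch 1 against batch 2 gave 0.41 and against batch 3 gave 0.30, and the comparisons with batch 4 gave -0.21, -0.17 and 0.05 for batches 1, 2 and 3. The points are genes, which are not independent, and the members were chosen for their host difference, so these values are a description. Those at least 1 log2 unit lower in the NOD library numbered 1, 16, 30 and 2 in batches 1 to 4, beside 3.48%, 4.95%, 6.55% and 9.74% of all genes.

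**Figure D4:**
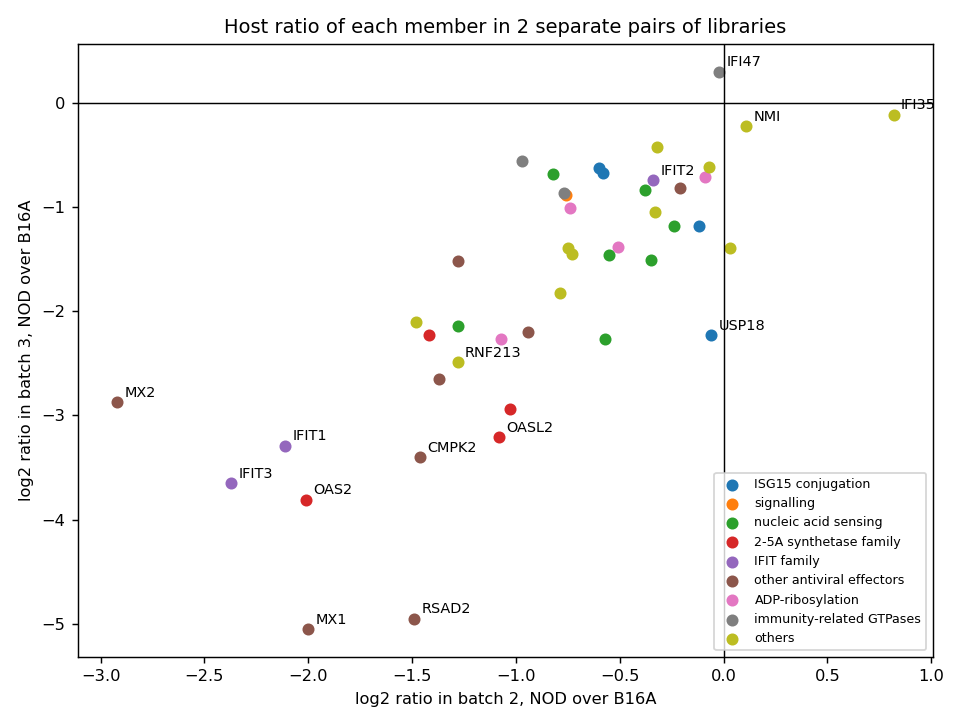
Log2 ratio, NOD over B16A library, of each of the 45 tested members in batch 2 (x axis) and batch 3 (y axis), coloured by role. Of the 45 members, 41 lie below 0 on both axes (r = 0.77), with MX1, RSAD2, OAS2, IFIT3 and CMPK2 farthest down and IFI47, IFI35, NMI and TOR3A outside that quadrant.

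The 14 tested members with an ISRE core had a median log2 ratio of -1.81 in batch 3 and a median log2 fold change of -0.56 over the 4 batches. The 20 members with a window and no core had medians of -0.78 and -0.42. The groups overlap: CMPK2 and RNF213 have no core and ratios of -3.40 and -2.49 in batch 3, and IGTP has a core and a ratio of -0.56. With an SE of up to 1.06 per gene, these medians describe the members and no difference was tested.

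Which members differed between batch 4 and batches 1 to 3 was not used to choose the members and was tested in the same model. The same libraries gave the host comparison that chose the members, and their spread within batches enters the standard errors here. The batch 4 comparison is therefore not fully separate from that choice. Higher in batch 4 were 18 of 45 members (40.0%), where 32.1% of all tested genes were called higher. Lower were 3 members (6.67%), where 39.4% of all tested genes were called lower. The share of higher members is thus near that of all genes, and few members were among the many genes called lower. The median log2 difference of the members was 0.27, and that of all genes was -0.25. With upper-quartile scaling in place of TMM these medians were -0.41 and -0.92. With that scaling 13 members (28.9%) were called higher, beside 20.4% of all genes, and 13 (28.9%) lower, beside 52.5% of all genes. The gap between the 2 medians was 0.51 in both scalings. It was 0.084 without the NOD and 1.49 without the B16A library of batch 4. The median deviation of the members, defined above, was 0.39 in that NOD and 0.38 in that B16A library. With 1 of them left out, the other is set against its own host in batches 1 to 3. There the deviations were -0.66 to -0.31 in NOD and -0.27 to 0.99 in B16A libraries, so the host difference enters this gap.

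The 3 members with the smallest adjusted p were NMI, IFI47 and DDX60. NMI ranged over 21.8 to 35.0 CPM before batch 4, where the NOD library held 183 and the B16A library 145 CPM, a log2 difference of 2.64 (SE 0.17; edgeR, adjusted p = 4.73e-09). IFI47 rose from 108 to 235 CPM in batches 1 to 3 to 904 and 622 CPM (2.26, SE 0.14; edgeR, adjusted p = 5.09e-09). DDX60 stood at 18.1 to 41.4 CPM and at 167 and 143 CPM (2.74, SE 0.21; edgeR, adjusted p = 4.44e-08). In all 3 genes both batch 4 libraries lay far above the other 6, in either host.

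IRGM1 (2.45), RTP4 (2.60), USP18 (2.42), IFI27L2A (2.31), IFIT2 (2.21), BST2 (1.93), IGTP (1.87), PARP9 (1.58), DTX3L (1.45) and TRIM30A (1.35) were also called higher (edgeR, log2 differences). With NMI, IFI47 and DDX60 these make 13 genes that passed with upper-quartile scaling as well. DHX58, SAMD9L, XAF1, IFI35 and SP100 did not pass with that scaling.

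Lower in batch 4 were OAS3 (-3.01, SE 0.94; edgeR, adjusted p = 0.0389), PARP14 (-1.02, SE 0.21; edgeR, adjusted p = 0.000468) and UBA7 (-0.78, SE 0.20; edgeR, adjusted p = 0.00275), with both scalings. OAS3 ranged over 31.4 to 242 CPM before batch 4, where it was 9.28 and 4.23 CPM. The antiviral members thus split: OAS3 fell in batch 4 and IFIT2 rose, while IFIT1, IFIT3, MX1, MX2, RSAD2 and OAS2, with SE from 0.75 to 1.06, were not called in either direction. The batch 4 libraries also differ from the others in depth, in genes detected and in the share of counts of GM10800, a gene model at 5.87% to 17.1% in batches 1 to 3 and at most 0.00469% in batch 4. Markers of other cells moved with that batch as well. The 5 NK cell markers summed to 40.1 and 63.8 CPM in the NOD and B16A libraries of batch 4, against 6.54 to 18.8 CPM in batches 1 to 3. That rise lay in KLRD1 (19.6 and 41.1 CPM against 2.44 to 6.21) and GZMA (19.8 and 22.2 CPM against 0.936 to 10.8). EOMES went the other way (0.672 and 0.0838 CPM against 1.5 to 3.07). KLRB1C was at 0 in both batch 4 libraries, and NCR1 at 0 and 0.461 CPM, so the list did not rise as a set. Markers of conventional dendritic cells summed to 9.23 and 3.77 CPM against 30.4 to 55.4 CPM, and those of macrophages and monocytes to 9.41 and 10.6 CPM against 38.9 to 76.7 CPM. The part of these differences in the member calls was not tested.

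**Figure D5:**
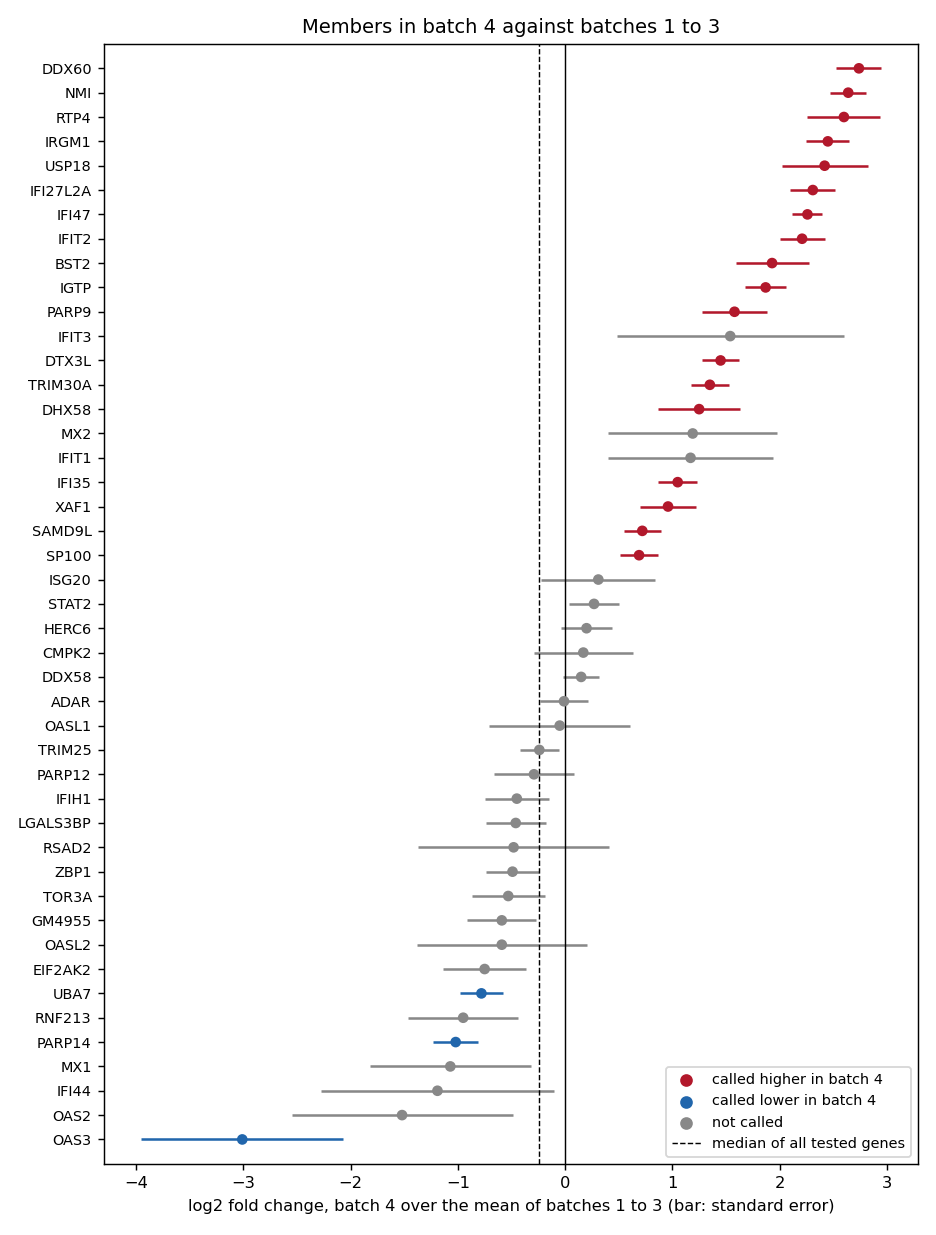
Log2 fold change of the 45 tested members in batch 4 over the mean of batches 1 to 3 (bars, standard error; red called higher, blue called lower, grey not called; dashed line, median of all tested genes at -0.25). The 18 members called higher reach up to 2.74 for DDX60, and OAS3 is lowest at -3.01.

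Of 21 interferon genes, 0 had enough reads to be tested. IFNB1 had 3, 0, 1 and 0 counts in NOD libraries and 2, 8, 1 and 0 counts in B16A libraries, and IFNG had 3, 1, 3 and 0 counts and 4, 2, 9 and 0 counts. IFNA1, IFNA4, IFNA15 and IFNL2 were at 0 in all 8 libraries. The exception was IFNK, a keratinocyte interferon gene, with 2 to 4 counts in batches 1 to 3 and 146 and 186 counts in batch 4.

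Of 17 receptors and signal transducers, 11 had a fold change below 0, the median was -0.07, and 0 were called between hosts. IFNAR2 and IFNAR1, the chains of the type I receptor, had the smallest p-values, with log2 fold changes of -0.48 (SE 0.20) and -0.26 (SE 0.13). IRF9 was at 0.09 (SE 0.13). IRF7, an interferon-induced factor that drives interferon alpha genes, was at -0.07 (SE 0.29), and its B16A library of batch 3 held 207 CPM against 80.9 CPM in the NOD library. In batches 2 and 3, where the medians of the members were -0.75 and -1.45, IRF9 had log2 ratios of 0.13 and -0.12.

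Negative regulators (8 genes, median -0.13; PIAS4 at -0.23 and PTPN11 at -0.19) and upstream adaptors (13 tested of 14, median 0.02; IKBKE at 0.22 and IRAK4 at -0.25) had 0 calls between hosts. Among 81 further interferon-stimulated genes, 66 were tested, 53 were negative and the median was -0.20. Of these 66, 30, 53, 62 and 23 were lower in the NOD library in batches 1 to 4, with median ratios of 0.02, -0.47, -0.78 and 0.20. Over all tested genes the shares lower were 50.0%, 46.6%, 52.0% and 46.9%. No difference between these genes and the members was tested. TNFSF10, the death ligand TRAIL, was called lower with batch 4 left out (-1.19, SE 0.26; edgeR, adjusted p = 0.047), and GBP4, a guanylate-binding protein gene, was at -0.44 (SE 0.14).

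Markers of other cells that a lymph node sort could hold were read beside the members. The B16A library of batch 3, which held the highest member levels, had a summed level of 46.3 CPM for 7 macrophage and monocyte markers and 40.9 CPM for 6 markers of conventional dendritic cells. Its NOD partner had 43.0 and 30.4 CPM. For 5 NK cell markers the sum was 18.8 CPM in that B16A library and 12.6 CPM in its NOD partner, against 6.54 to 11.5 CPM in batches 1 and 2. GZMA, one of these markers, held 10.8 CPM in that B16A library and 3.43 CPM in its NOD partner. The 5 markers of plasmacytoid dendritic cells, cells known for making type I interferon, summed to 95.2 to 126 CPM in NOD and 70.1 to 89.2 CPM in B16A libraries, a sum held mostly by CCR9, a chemokine receptor gene. CCR9 was at 52.2 to 72.7 CPM in NOD and 27.6 to 57.9 CPM in B16A libraries. In batch 3 the order was the other way for TCF4 (20.3 CPM in NOD, 26.4 in B16A) and for BST2 (4.09 and 19.4 CPM), which is also a member. The list's defining gene SIGLECH was at 0 to 3.18 CPM in NOD and 0 to 1.78 CPM in B16A libraries. B cell markers summed to 2.02 to 20.9 and 1.72 to 11.1 CPM, and 0 markers of any of the lists were called between hosts. PDPN and CCL19 of reticular stroma and HBA-A2 of red cells were at 0 in all 8 libraries. The summed CD4 T cell markers were 4880 to 14300 CPM in NOD and 4380 to 10600 CPM in B16A libraries. The part of these cells in the member levels was not tested.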

How the data were processed

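RNA of 8 samples of sorted mouse T cells was sequenced. The authors deposited 1 table of raw counts, whole numbers of reads for each gene without normalization. The submitters' processing notes name STAR, HTSeq, DESeq2 and mm10. Versions, annotation and strand setting: not given in the sources used here. Per the labels' protocols, RNA was amplified with the SeqPlex kit, given 12 cycles of indexing PCR and read as single reads of 50 bases. Amplified reads are not independent molecules, so counts cover counting error only.

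The main test was the quasi-likelihood test of edgeR 4.0.16 under R 4.3.3, with robust estimation, TMM factors and the filterByExpr filter by group, which removed 32018 genes and left 14607. The filter kept 45 of the 47 members, 43 of them above its limit of 1.64 CPM in all 8 libraries. MX1 was above it in 2 NOD and 3 B16A libraries, and IFI44 in 2 NOD and 4 B16A libraries. ISG15 and OAS1A were not tested. p-values were adjusted by Benjamini-Hochberg over all tested genes at 0.05. Log2 ratios within batches use a prior count of 2. DESeq2 1.42.0 was an alternative. Standard errors come from the quasi-likelihood F statistic. The scripts were tested on simulated data.

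The members and gene lists were chosen with earlier results of these data known. Batch was a block because the labels call the shared number a batch. To describe the pairing, each library's deviation from its group mean was correlated, over genes, with that of its partner. In batches 1 to 4 r was 0.625, 0.702, 0.611 and 0.906. Libraries of different batches among 1 to 3 gave 0.465 to 0.741, highest between NOD of batch 2 and B16A of batch 3. Between batch 4 and the others r was -0.825 to -0.636. In batches 1 to 3 the values of partners lie within the range of the other pairs, so they cannot check the pairing there. All pairs of libraries differed beyond sampling noise (smallest chi-square per degree of freedom 8.54). In each role, values of every library are given for up to 3 members with the largest fold change and a mean of at least 2 CPM, and for the one with the highest level per length. Positions, lengths and shared 50-base stretches come from GENCODE vM21, and promoters from RefSeq.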

Additional observations from a re-analysis of the deposited data

Results flagged for a closer look

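Dixon's test picked out 1 library of the 4 of a host in 9 of 58 groups of member values, all in NOD hosts. The limit used would pick about 1 in 20 independent groups by chance. These groups are not independent: they are genes of the same 8 libraries, named from members chosen on the host comparison. The count and its host are therefore a description, and nothing is read from them. In 7 of these 9 the NOD library of batch 4 stood apart. Higher there than in the other NOD libraries were IFIT2 (105 CPM against 17.8 to 22.4), RTP4 (215 against 14.8 to 23.4), PARP9 (157 against 29.9 to 34.2), DTX3L (415 against 131 to 159) and IRGM1 (333 against 41.5 to 48.5). Lower there were UBA7 (109 CPM against 148 to 158) and OAS3 (9.28 against 31.4 to 36.3). The B16A library of batch 4 lay on the same side of its own group for each of these 7 genes, with 88.6, 124, 87.0, 430, 250, 91.6 and 4.23 CPM in the same order.

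In the other 2 groups the library that stood apart was from batches 1 to 3. OAS2 was at 18.9 CPM in the NOD library of batch 1 and at 11.3 to 11.6 in the rest. RSAD2 was at 2.61 CPM in the NOD library of batch 3 and at 5.85 to 6.54 in the rest, the same batch in which its B16A library was highest.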

How the results depend on the processing

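The median log2 fold change of the members between hosts was -0.48 and stayed negative in each alternative run, from -0.70 to -0.20, with 36 to 44 negative members. Leaving out single libraries gave medians of -0.70 to -0.22 and 36 to 43 negative members. Of these, the smallest came without the NOD or the B16A library of batch 3. Without the replicate block the batch pairing is dropped: 0 genes and 0 members were called (34 genes at an unadjusted p under 0.05, edgeR), the median was -0.54 and 37 members were negative, 5 of 45 having changed sign. With the block 857 genes had an unadjusted p under 0.05 (edgeR). Both fits called 0 genes, so there was no call that the block could change.

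Calls between hosts depended on the libraries, filter and tool. Against 0 lower and 0 higher genes with edgeR, DESeq2 with the batch term called 4 and 23, edgeR without a filter on low counts 3 and 11, and edgeR with batch 4 left out 7 and 25. Without 1 library each, 0 to 13 genes were lower and 0 to 42 higher; the calls came without the NOD library of batch 4 (13 and 42) or the B16A library of batch 4 (10 and 35). Members called lower numbered 3 without a filter (CMPK2, GM4955 and MX1), 3 with batch 4 left out, and 0 to 6 without 1 library (6 without the NOD and 5 without the B16A library of batch 4, CMPK2, GM4955, LGALS3BP, MX2 and RTP4 in both). DESeq2 gave 18 of 45 members no adjusted p.

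In batch 4 against batches 1 to 3, 18 members were higher, with 14 to 22 without 1 library. The 3 lower members became 6 with DESeq2, 13 with upper-quartile factors, 5 with batch 3 left out and 2 to 12 without 1 library (12 without the NOD library of batch 3, 7 without the NOD library of batch 4). Genes called higher fell to 2985 with upper-quartile factors, and genes called lower numbered 12581 without a filter. The members' median of 0.27 was -0.41 with upper-quartile factors, and -0.28 to 1.02 without 1 library, lowest without the NOD and highest without the B16A library of batch 4. Its gap to the median of all genes, 0.51, was 2.27 without a filter. This comparison cannot be made with both batch 4 libraries left out or without the block. Where a single library was left out, the lone library of its batch adds nothing to the host difference within that batch. For other changes of value the cause was not tested. Depth limits MX1, OAS1A, ISG15 and IFI44, which had under 20 counts in several libraries. Other members fell under 20 counts in NOD libraries too, so their large ratios rest on few reads. These were OASL1 (17 in batch 1, 18 in batch 2), CMPK2 (18 in batch 1) and RSAD2 (16 in batch 3). In batch 2 they were MX2 (12), IFIT3 (13) and DHX58 (19).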

Other observations

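Several members lie next to each other in the genome, and neighbours did not always share their values. RSAD2 and CMPK2, which act on the same nucleotide pathway, are transcribed away from each other on chromosome 12 with 12751 bases between them. Both peaked in the B16A library of batch 3, at 86.9 and 36.4 CPM. In batch 1 CMPK2 was lower in the NOD library (log2 ratio -1.22) and RSAD2 was level (0.02). OAS2 and OAS3 lie 3244 bases apart on chromosome 5 on the same strand, and their ratios were alike in batches 1 to 4: -0.14, -2.01, -3.81 and 0.65 for OAS2 and -0.46, -1.03, -2.94 and 1.10 for OAS3.

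PARP14, DTX3L and PARP9 share a stretch of chromosome 16 but parted in batch 4: PARP9 and DTX3L were called higher there and PARP14 lower (edgeR, log2 differences 1.58, 1.45 and -1.02). IFIT2 lies 7111 bases from IFIT3 and was called higher in batch 4 (2.21, SE 0.21), while IFIT3 (1.54, SE 1.06) was not called. The difference between these neighbours was not tested.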
